A study of Mus musculus with 11 samples.

Results

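The carboxylesterases are serine hydrolases that hepatocytes make in large amounts, and 10 of their genes were followed here through YAP induction in the mouse liver. These were Ces1b, Ces1c, Ces1d, Ces1e, Ces1f, Ces1g, Ces2a, Ces2c, Ces2e and Ces3a, out of 20889 genes measured. They were taken by symbol, and the family was chosen by the level of Ces1f. Of all tested genes, Ces1f had the largest decrease between control livers and livers after 7 days of induction. Every value of that comparison is therefore given for these genes as a description, with no p-value. Where they are said there to pass the study's thresholds, this only sorts them and is no evidence. The table held 18 carboxylesterase genes in all. All 10 passed the filter on low values (at least 0.5 eRPKM in at least 3 livers), and so did 7 of the other 8, Ces5a being the exception.

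RNA was sequenced from 11 whole livers, 1 library each, of C57BL/6 mice. The 4 control livers carried ROSA26-rtTA-IRES-EGFP without the YAP transgene (labelled WT) and came from mice given doxycycline food for 7 days. The other 7 livers carried ROSA26-rtTA-IRES-EGFP and tetYAP, a doxycycline-driven, constitutively active YAP, and came from 4 mice fed doxycycline for 3 days and 3 mice fed it for 7 days. Controls and 7-day mice thus shared the length of the diet, and the 3-day mice differed from the controls in both transgene and diet. According to the methods the line also carried Alb-CRE, which opens the rtTA allele in cells that express albumin, so the transgene was meant for hepatocytes while the RNA came from all cells of the liver. The ages of these mice are not given in the sources used here. By Xist and Y-linked genes, 2 controls and 2 of the 3-day livers were female and all 3 of the 7-day livers were, so sex and 7 days of induction were not balanced.

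Carboxylesterases split ester, amide and thioester bonds. They sit mostly in the lumen of the endoplasmic reticulum, where they activate or clear many drugs and hydrolyse triglycerides, cholesteryl esters and other lipids that feed lipoprotein assembly. In mice the family has expanded by tandem duplication, so that the Ces1 and the Ces2 groups each hold several neighbouring genes with related sequences. YAP is a transcriptional cofactor, bound to DNA by TEAD proteins, that is held in check by the Hippo kinases in the adult liver.

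The genes lie in 2 tandem clusters on chromosome 8 of mm9. The Ces1 cluster spans chr8:95544113-96059607 (515 kb) with all 9 annotated family genes on the minus strand, and the Ces2, Ces3 and Ces4 cluster spans chr8:107257903-107674009 (416 kb) with 11 family genes on the plus strand. Ces1f occupies chr8:95780135-95803646, between Ces1e (chr8:95725117-95753518) and Ces1g (chr8:95826268-95861207). No exon of a family gene overlapped an exon of another gene in GENCODE M1. Sequence is shared within the family, and reads from shared stretches may be placed on either copy: 69.0% of the 50-base windows of Ces2c transcripts also occurred in another carboxylesterase, mostly the pseudogene Ces2d-ps, and 30.1% of those of Ces3a occurred in Ces3b. For Ces1c this share was 12.8%, for Ces1b 10.8% and for Ces1f 0.50%, and for the other 5 genes it was between 1.28% and 3.30%. The counts of Ces2c and Ces3a are therefore less certain as to the copy than those of Ces1f.

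Promoter sequences from RefSeq (GRCm38.p6) matched 7 of the 10 genes, and not Ces1d, Ces1f and Ces3a. The 250 bases before the start of transcription are shown for 3 Ces2 genes because these neighbours moved so differently: Ces2c was nearly lost at 7 days, whereas Ces2a and Ces2e were not called lower. Each window matched mm9 once, at chr8:107257653-107257902 for Ces2a, chr8:107370718-107370967 for Ces2c and chr8:107449910-107450159 for Ces2e, all on the plus strand. Capitals mark every match, on either strand, to 6 short motifs: GGAATG (TEAD), CAAAGT (the HNF4 core), GTTAAT (an HNF1 half-site), TTGCNNAA (C/EBP), AGGTCA (a nuclear receptor half-site) and TATAAA (the TATA box).
Ces2a: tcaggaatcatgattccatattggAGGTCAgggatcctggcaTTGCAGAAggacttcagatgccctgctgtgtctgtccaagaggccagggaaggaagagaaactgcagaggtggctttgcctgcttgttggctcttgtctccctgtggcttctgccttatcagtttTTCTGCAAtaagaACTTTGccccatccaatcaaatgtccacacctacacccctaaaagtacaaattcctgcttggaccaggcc
Ces2e: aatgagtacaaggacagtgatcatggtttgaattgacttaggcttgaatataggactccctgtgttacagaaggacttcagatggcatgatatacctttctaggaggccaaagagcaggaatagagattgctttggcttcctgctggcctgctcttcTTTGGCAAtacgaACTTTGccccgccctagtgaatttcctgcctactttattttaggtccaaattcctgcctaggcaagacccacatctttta
Ces2c: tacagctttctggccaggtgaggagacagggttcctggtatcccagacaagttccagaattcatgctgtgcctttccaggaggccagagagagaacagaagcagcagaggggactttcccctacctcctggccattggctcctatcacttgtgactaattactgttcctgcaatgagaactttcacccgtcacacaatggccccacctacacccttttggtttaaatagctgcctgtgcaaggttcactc
The HNF4 core, read as ACTTTG on the gene's strand, stood 70 to 65 bases before the start in Ces2a and 80 to 75 bases before it in Ces2e. It was present in 4 of the 5 tested Ces2 genes with a promoter sequence (Ces2a, Ces2e, Ces2f and Ces2g) and in 12.6% of all 32851 promoters of this length. Ces2c held none of the 6 motifs in this window, which says only that these letters are not there.

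Ces1b and Ces1c are shown as the pair of Ces1 neighbours with the most similar promoters, at chr8:95603840-95604089 and chr8:95655183-95655432 on the minus strand. Their windows shared an unbroken run of 58 bases, the longest among the family's promoters, and both held the C/EBP letters TTGCATAA. RefSeq also gave Ces1b another start, with an overlapping window at chr8:95603917-95604166 that held the same letters. That window is not shown and was not used for the shared runs.
Ces1b: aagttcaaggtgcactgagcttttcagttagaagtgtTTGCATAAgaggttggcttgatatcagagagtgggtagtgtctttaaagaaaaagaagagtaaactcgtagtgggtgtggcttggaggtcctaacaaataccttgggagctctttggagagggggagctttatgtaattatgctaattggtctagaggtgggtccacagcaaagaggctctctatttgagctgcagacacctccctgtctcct
Ces1c: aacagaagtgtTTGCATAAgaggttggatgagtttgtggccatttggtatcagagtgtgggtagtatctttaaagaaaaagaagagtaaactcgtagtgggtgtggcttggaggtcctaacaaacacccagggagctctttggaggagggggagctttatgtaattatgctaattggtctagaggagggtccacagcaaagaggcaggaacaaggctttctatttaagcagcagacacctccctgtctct
The C/EBP motif was found in 4 of the 7 genes with a promoter (Ces1b, Ces1c, Ces2a and Ces2e) and in 9.56% of all promoters. The TEAD letters and the HNF1 half-site were in 0 of the 7, against 12.6% and 6.43% of all promoters. The nuclear receptor half-site was in Ces2a (14.0% of all promoters), and the TATA letters were in Ces1g (12.4%). Ces1e, like Ces2c, held none of the 6.

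Expression values are eRPKM, an RPKM over exons: reads per kilobase of exon, scaled to the size of the library. They give relative and not absolute amounts of RNA. The libraries held 1230368 (control 4) to 5909004 (7-day liver 2) reads on genes, a 4.80-fold range, but the gene with the highest value reached 1259.7 to 1492 reads per kilobase in every one of them. High values therefore did not scale with depth, and the top value was 1024 eRPKM in control 4 and 245 eRPKM in 7-day liver 2. In the controls Ces3a held 563 to 899.8 reads per kilobase and Ces1c 429.6 to 896. Of the 10 genes, 8 had their highest control value in control 4, at 1.33 to 2.28 times the mean of the other 3 controls. The part that this takes in the differences was not tested beyond the fits given below. These left out control 4, kept the 2 deepest controls only, or took log2 depth as a covariate. All 10 hepatocyte markers were present in every liver. Their summed level ranged from 2223 to 6890 eRPKM in controls, from 2806 to 3623 eRPKM in the 3-day livers and from 1870.3 to 2116 eRPKM in the 7-day livers, with a median log2 fold change of -0.87 at 7 days. The YAP targets Cyr61 and Ctgf had mean levels of 9.43 and 8.69 eRPKM in controls and 39.0 and 24.1 at 3 days. At 7 days they were at 91.0 and 96.7 eRPKM. Of 6 genes listed to check the YAP response, 0 passed the study's thresholds at 3 days and 5 rose at 7 days. At 3 days the limma adjusted p was 0.0117 for Cyr61 and 0.0833 for Ctgf. Ankrd1, also on that list, was lower at 3 days, at a log2 fold change of -0.94. All 4 of its 3-day livers lay below every control, from at most 2 reads each. Its log2 fold change at 7 days was 3.88. The row of Yap1 itself stayed at 18.2, 16.8 and 18.4 eRPKM, and whether reads of the transgene were counted on it is not stated.

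**Figure D1:**
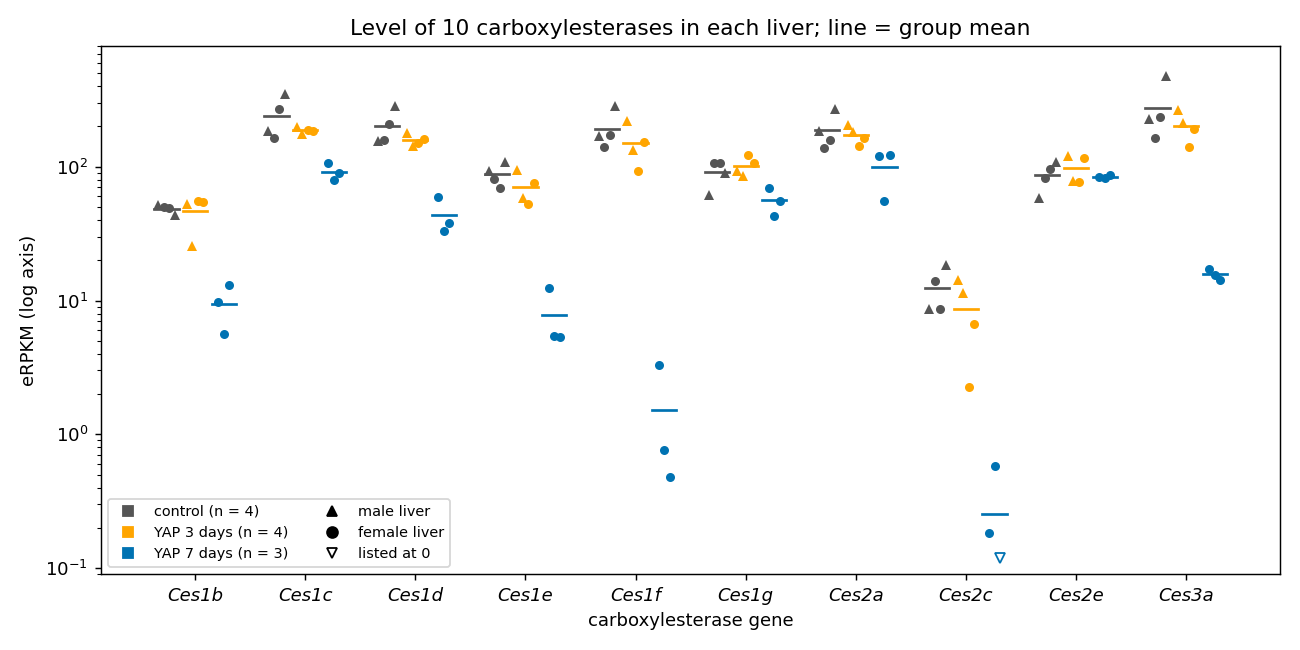
Level of the 10 carboxylesterases in each liver, in eRPKM on a log axis, with control livers in grey (n = 4), 3-day livers in orange (n = 4) and 7-day livers in blue (n = 3). Triangles are male livers, circles female livers, the open triangle a value of 0, and each line is a group mean. Ces1f and Ces3a show the widest gaps between the 7-day livers and the rest, and Ces1g and Ces2e show none.

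After 3 days of YAP induction none of the 10 carboxylesterases passed the test against controls. In limma's test of 3 days against control, 0 of the 10 were called in either direction at the study's thresholds (an adjusted p below 0.01 together with a log2 fold change beyond 0.5 either way), and 0 of the 10 had an unadjusted p under 0.05. Across all 14240 genes tested, 0% were called lower and 0.0421% higher, while 12.1% had an unadjusted p under 0.05. Their log2 fold changes ran from -0.67 for Ces2c to 0.18 for Ces2e, with a median of -0.31 against 0.02 over all tested genes. In none of the 10 did every 3-day liver lie below every control, as was so for 2.25% of all genes. Of the other 7 tested carboxylesterases none was called, but Ces2f and the pseudogene Ces2d-ps had all 4 of their 3-day livers below every control. Ces2f was at 3.42 to 5.07 eRPKM in controls and 2.65 to 2.97 eRPKM at 3 days, with a log2 fold change of -0.46 ± 0.20 (SE, limma adjusted p = 0.384). For Ces2d-ps the log2 fold change was -0.73 ± 0.22 (SE, limma adjusted p = 0.196), from at most 7 reads in any liver. The control livers of this comparison are also those of the comparison by which the family was picked.

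Ces1f, a triglyceride hydrolase of the hepatocyte endoplasmic reticulum, stood at 170, 141, 173 and 286 eRPKM in controls 1 to 4 and at 218, 134, 92.4 and 154 eRPKM in the 3-day livers. These sets overlapped, with a log2 fold change of -0.38 ± 0.39 (SE) and a 95% interval of -1.21 to 0.46 (limma adjusted p = 0.730). Ces3a, a liver esterase known to be higher in males, stood at 229, 165, 236 and 479 eRPKM in controls and 266, 214, 141 and 191 eRPKM at 3 days. Here 3 of the 4 induced livers lay within the control range, and the log2 fold change of -0.37 ± 0.28 (SE) had an interval of -0.97 to 0.24 (limma adjusted p = 0.625). The interval of Ces2c reached from -1.69 to 0.34, so in this low gene even a decrease of that size could not be told from none at 3 days. For Ces2e and Ces1g the interval was -0.27 to 0.62, which leaves out any larger decrease at 3 days.

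At 7 days 7 of the 10 genes were lower than in controls past the thresholds, and 3 (Ces1g, Ces2a and Ces2e) did not reach them. Because this comparison chose the family, its counts carry no weight as evidence: 7 of 10 were called lower where 5.77% of all tested genes were, 0 of 10 were called higher where 18% were, and 8 of 10 had 7-day values below every control where 13.3% of all genes did. The median log2 fold change of the 10 genes was -2.29, against 0.26 over all genes. Another scaling moved the median of all genes to 0.03 (median-ratio size factors) or -0.08 (quantile normalization) and the share of calls that were rises from 75.7% to 60.9% or 50.5%, and 7 of the 10 genes were called lower under both. In bulk liver, fewer cells that express a gene and less RNA per cell cannot be told apart.

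Ces1f was almost lost. Its 7-day values were 3.31, 0.767 and 0.477 eRPKM, which rest on 35, 9 and 5 reads, against 706 to 1534 reads in the controls. The 7-day mean of 1.52 ± 1.56 eRPKM (SD, n = 3) was 0.788% of the control mean of 193 ± 63.9 eRPKM (SD, n = 4). The log2 fold change was -6.80 ± 0.42 (SE), 111-fold lower on the log2(eRPKM + 0.5) scale, ahead of Serpina4-ps1 (-6.28) and Hsd3b5 (-5.84) among all 14240 genes. Within the 7-day group the values still spanned 6.94-fold, and liver 1 was the highest. With female livers only the log2 fold change was -6.55, without control 4 it was -6.59, and with the 2 deepest controls only it was -6.54.

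Ces1d, the microsomal triacylglycerol hydrolase first described in liver, stood at 156, 159, 207 and 284 eRPKM in controls and 177, 144, 151 and 160.4 eRPKM at 3 days. At 7 days it was at 58.9, 33.4 and 37.9 eRPKM. All 3 values lay below every earlier liver, yet 21.5% of the control mean remained, at a log2 fold change of -2.20 ± 0.23 (SE). Ces1g, an esterase tied to hepatic lipid storage and lipoprotein secretion, stood at 61.8, 107, 107 and 89.1 eRPKM in controls, 92.6, 84.7, 122 and 107 eRPKM at 3 days and 69.9, 43.1 and 55.6 eRPKM at 7 days. The 7-day and control ranges of Ces1g overlapped through 7-day liver 1 and control 1, a male liver. The log2 fold change of -0.69 ± 0.22 (SE) was not called. Ces1g was called at -0.95 with female livers only, -0.88 with Xist as a covariate and -0.86 without control 1.

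Ces1e encodes egasyn, which holds beta-glucuronidase in the endoplasmic reticulum. Its levels were 93.3, 81.4, 69.2 and 109 eRPKM in controls, 94.3, 57.9, 52.3 and 76.1 eRPKM at 3 days and 12.5, 5.43 and 5.38 eRPKM at 7 days, with a log2 fold change of -3.51 ± 0.29 (SE) at 7 days. The partner's gene went the other way: Gusb, beta-glucuronidase itself, rose by a log2 fold change of 1.61 ± 0.16 (SE) at 7 days (limma adjusted p = 1.69e-05), from 9.87 to 13.0 eRPKM in controls to 30.8 to 42.0 eRPKM. Ces1b stood at 52.2, 49.7, 49.4 and 43.4 eRPKM in controls, at 52.3, 25.7, 55.0 and 54.9 eRPKM at 3 days and at 9.68, 5.64 and 13.0 eRPKM at 7 days. Its controls were the tightest of the 10 genes, with a coefficient of variation of 7.65%, and the log2 fold change at 7 days was -2.38 ± 0.29 (SE).

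Ces1c, the carboxylesterase that mouse liver secretes into plasma, had the smallest difference among the called genes. It stood at 184, 164, 268 and 349 eRPKM in controls, 199, 175, 188 and 184 eRPKM at 3 days and 106, 79.9 and 90.2 eRPKM at 7 days. The log2 fold change at 7 days was -1.33 ± 0.23 (SE), and it was -0.92 with the 2 deepest controls only. In reads per kilobase, before scaling to the library, Ces1c took 429.6 to 896 in controls and 472 to 565 at 7 days. These ranges overlapped where those of the eRPKM did not, through control 4, the shallowest library, with 1033 reads. Control 2, the deepest control, held 2135 reads, against 1345, 1124 and 1133 in the 7-day livers.

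Among the Ces2 genes, whose best known products are drug and acylglycerol hydrolases, the members parted. Ces2c, an acylcarnitine hydrolase, was the lowest of the 10 genes in controls, at 8.60, 13.9, 8.60 and 18.5 eRPKM. At 3 days it was at 14.2, 11.4, 2.28 and 6.69 eRPKM, and at 7 days at 0.184, 0.580 and 0 eRPKM, from 2, 7 and 0 reads. The 0 allows a level of up to 0.278 eRPKM (3 reads) by counting error, and the log2 fold change at 7 days was -4.10 ± 0.51 (SE), the widest error of the 10. The size of this difference depended on the setting, from -3.38 with a pseudocount of 1 to -5.91 with limma-voom on the recovered reads. Ces2a stood at 186, 137, 158 and 268 eRPKM in controls, 206, 182, 142 and 165 eRPKM at 3 days and 119.8, 55.2 and 123 eRPKM at 7 days. All 3 of its 7-day values lay below every control, liver 2 well under the other 2, but the log2 fold change of -0.95 ± 0.29 (SE) did not pass the thresholds. In reads per kilobase, before scaling to the library, Ces2a took 330 to 749 in controls and 326 to 651 at 7 days. These ranges overlapped through controls 3 and 4, the shallowest controls, with 772 and 679 reads. Control 2, the deepest control, held 1527 reads, against 1299, 665 and 1325 in the 7-day livers. Ces2e stood at 58.6, 82.5, 95.6 and 109 eRPKM in controls, 119, 77.7, 77.4 and 116 eRPKM at 3 days and 83.5, 82.4 and 86.2 eRPKM at 7 days. Its 7-day values fell inside the control range and were the closest together of any of the 10 genes, with a coefficient of variation of 2.28%, and its log2 fold change was -0.00 with an interval of -0.49 to 0.48. The sign of Ces2e depended on the scaling, with 0.34 under quantile normalization.

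Ces3a had the highest mean of the 18 carboxylesterases in controls, 277 ± 138 eRPKM (SD, n = 4), and ranked 8 among them at 7 days. At 7 days it stood at 17.2, 15.6 and 14.3 eRPKM, 5.67% of the control mean, with a log2 fold change of -3.99 ± 0.30 (SE). The 7-day livers were close to one another, and the lowest of the other livers, 3-day liver 3, still held 141 eRPKM. Without control 4 the log2 fold change of Ces3a was -3.68. Its neighbour Ces3b, which was not among the 10, ran alongside at 189, 133, 159 and 215 eRPKM in controls, 181, 161, 137 and 155 eRPKM at 3 days and 19.9, 14.8 and 18.0 eRPKM at 7 days, although part of the reads of the 2 genes cannot be told apart.

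**Figure D2:**
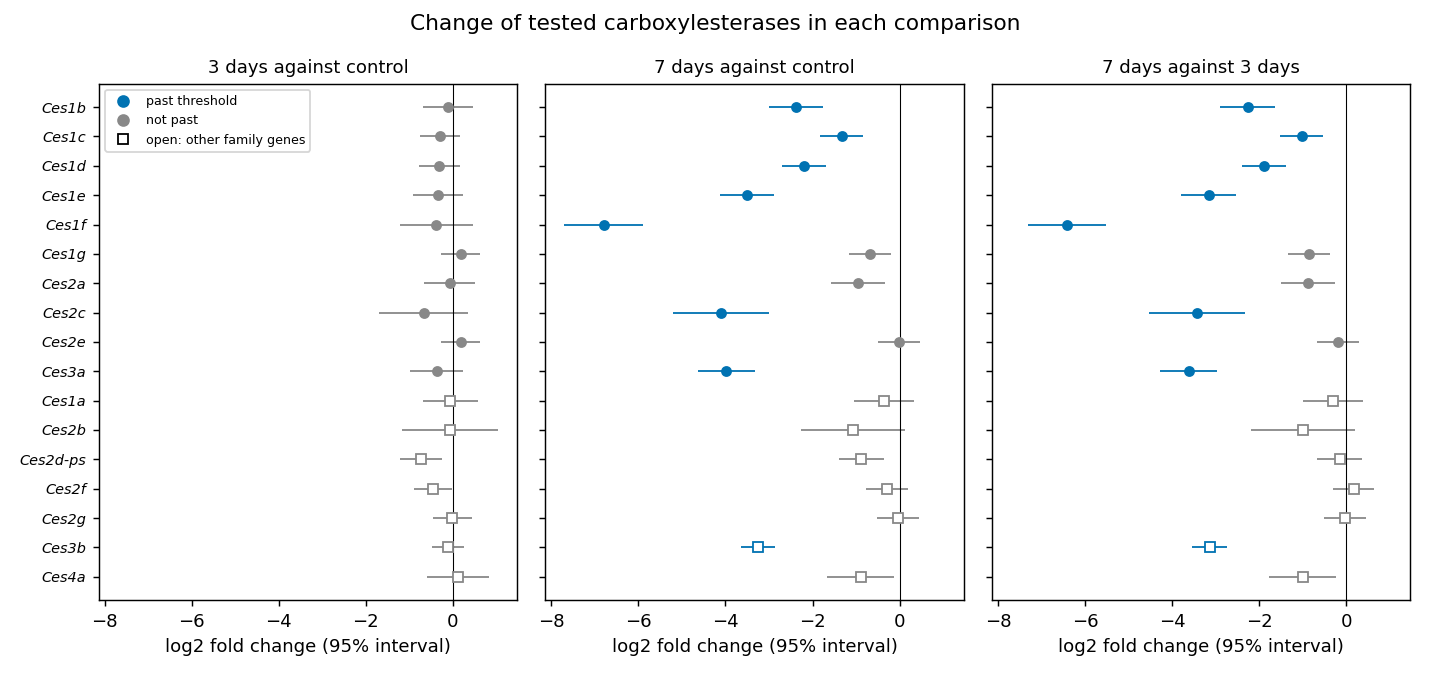
Log2 fold change of the 17 tested carboxylesterases in each comparison, on the log2(eRPKM + 0.5) scale, with 95% intervals from limma. Circles are the 10 genes, open squares the other 7, and blue marks those past the thresholds: none at 3 days, and at 7 days 7 of the 10 plus Ces3b against either control or 3-day livers.

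The decrease fell between 3 and 7 days. When 7-day livers were tested against 3-day livers, Ces1b, Ces1c, Ces1d, Ces1e, Ces1f, Ces2c and Ces3a fell and none rose: 7 of 10, where 5.31% of all tested genes fell and 14% rose. This comparison did not use the controls but shares the 7-day livers with the one that picked the family, so it is not independent of that choice. The log2 fold change was -6.42 ± 0.42 (SE) for Ces1f (limma adjusted p = 1.02e-06), -3.62 ± 0.30 for Ces3a (limma adjusted p = 7.99e-06), -3.42 ± 0.51 for Ces2c (limma adjusted p = 0.000304) and -3.16 ± 0.29 for Ces1e (limma adjusted p = 1.23e-05). Those of Ces1b and Ces1d were -2.26 and -1.89. The call of Ces1c, at -1.02 ± 0.23 (SE) with a limma adjusted p of 0.00486, was near the threshold and was lost in 9 of 24 alternatives, with an adjusted p of up to 0.0279.

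Ces1g, Ces2a and Ces2e did not pass in this step. Ces1g missed narrowly, at -0.86 ± 0.22 (SE) with a limma adjusted p of 0.0102, and passed in 8 of 24 alternatives, so its call depends on the setting. Ces2a was at -0.88 ± 0.29 (SE) with a limma adjusted p of 0.0315, and Ces2e at -0.18 ± 0.22 (SE) with a limma adjusted p of 0.542 and an interval of -0.66 to 0.30. In 9 of the 10 genes every 7-day liver lay below every 3-day liver, as 13.8% of all genes did, and Ces2e was the exception. With female livers only, the log2 fold changes were -6.16 for Ces1f, -3.35 for Ces3a, -3.05 for Ces1e and -2.64 for Ces2c, and all of these remained called.

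The uneven loss changed the make-up of the family. The summed level of the 18 carboxylesterases was 1633 ± 447 eRPKM (SD, n = 4) in controls, 1384 ± 191 eRPKM (SD, n = 4) at 3 days and 455 ± 85.0 eRPKM (SD, n = 3) at 7 days, and the 7-day sums of 363 to 531 eRPKM lay below all other livers. The Ces1 genes took 53.2 ± 2.75% (SD) of the sum in controls and 46.2 ± 3.04% at 7 days. The Ces3 genes went from 27.1 ± 3.36% to 7.41 ± 0.83%, and the Ces2 genes from 19.6 ± 1.18% to 46.2 ± 3.35%. Single livers had a Ces2 share of 18.5 to 21.2% among controls, of 21.3 to 23.1% after 3 days and of 43.8 to 50.1% after 7 days, although no Ces2 gene was called higher. Ces2e alone went from 4.14 to 6.49% of the family in controls to 15.7 to 22.7% at 7 days.

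**Figure D3:**
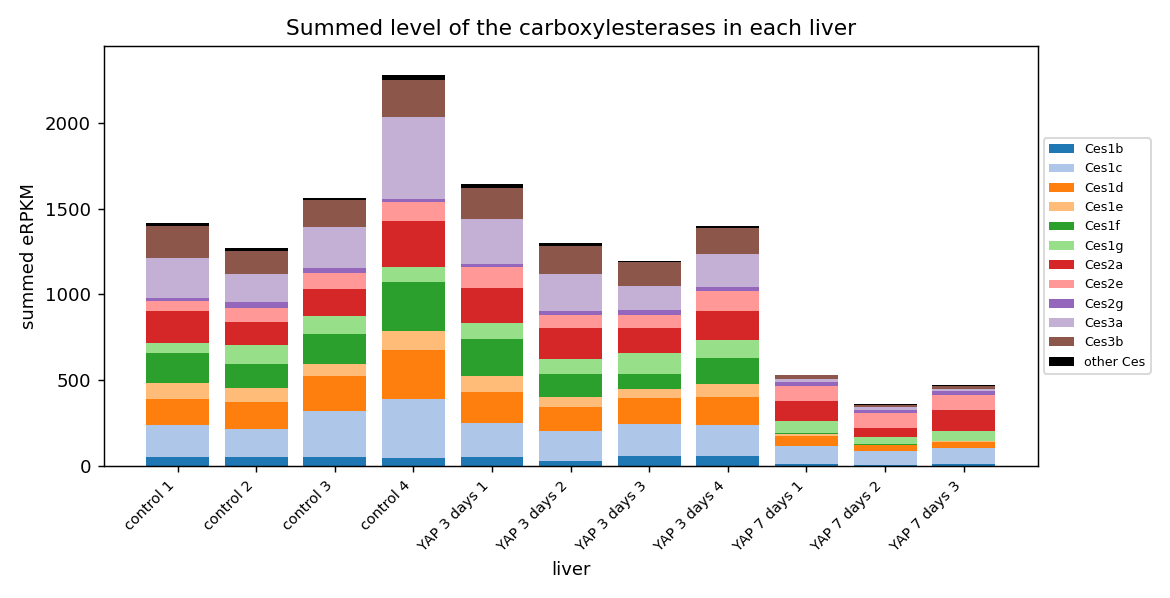
Summed level of the carboxylesterases in each liver in eRPKM (linear axis from 0), stacked by gene. Control and 3-day livers hold 1196 to 2278 eRPKM and the 7-day livers 363 to 531 eRPKM, with Ces1f, Ces3a and Ces3b nearly gone from the 7-day bars.

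The order of the levels turned over. In controls Ces3a (277 eRPKM), Ces1c (241 eRPKM), Ces1d (201 eRPKM), Ces1f (193 eRPKM) and Ces2a (188 eRPKM) led, and each differed from the next by less than its SD. At 7 days Ces2a (99.4 ± 38.3 eRPKM, SD), Ces1c (92.1 ± 13.2 eRPKM) and Ces2e (84.0 ± 1.92 eRPKM) led without differing beyond their spread, followed by Ces1g (56.2 ± 13.4 eRPKM) and Ces1d (43.4 ± 13.7 eRPKM). Ces1f went from rank 4 to rank 12 and Ces2c from rank 12 to rank 14. Ces2e went from rank 9 to rank 3 at nearly the same level.

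Neighbouring genes differed widely in the size of their change. Along the Ces1 cluster the log2 fold changes at 7 days were -2.38 (Ces1b), -1.33 (Ces1c), -2.20 (Ces1d), -3.51 (Ces1e), -6.80 (Ces1f) and -0.69 (Ces1g), so that the most and the least changed of these 6 genes are direct neighbours, 22.6 kb apart. In the other cluster Ces2c (-4.10) lay between Ces2a (-0.95) and Ces2e (-0.00). Of the genes outside the family within 500 kb, 6 were tested around the Ces1 cluster and 0 fell and 1 rose at 7 days. Slc6a2, the nearest, had a log2 fold change of -0.27 ± 0.30 (SE, limma adjusted p = 0.511). Around the other cluster 30 were tested, 1 fell and 8 rose. Over all tested genes 5.77% fell and 18% rose at 7 days. No gene outside the family was tested inside either cluster.

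**Figure D4:**
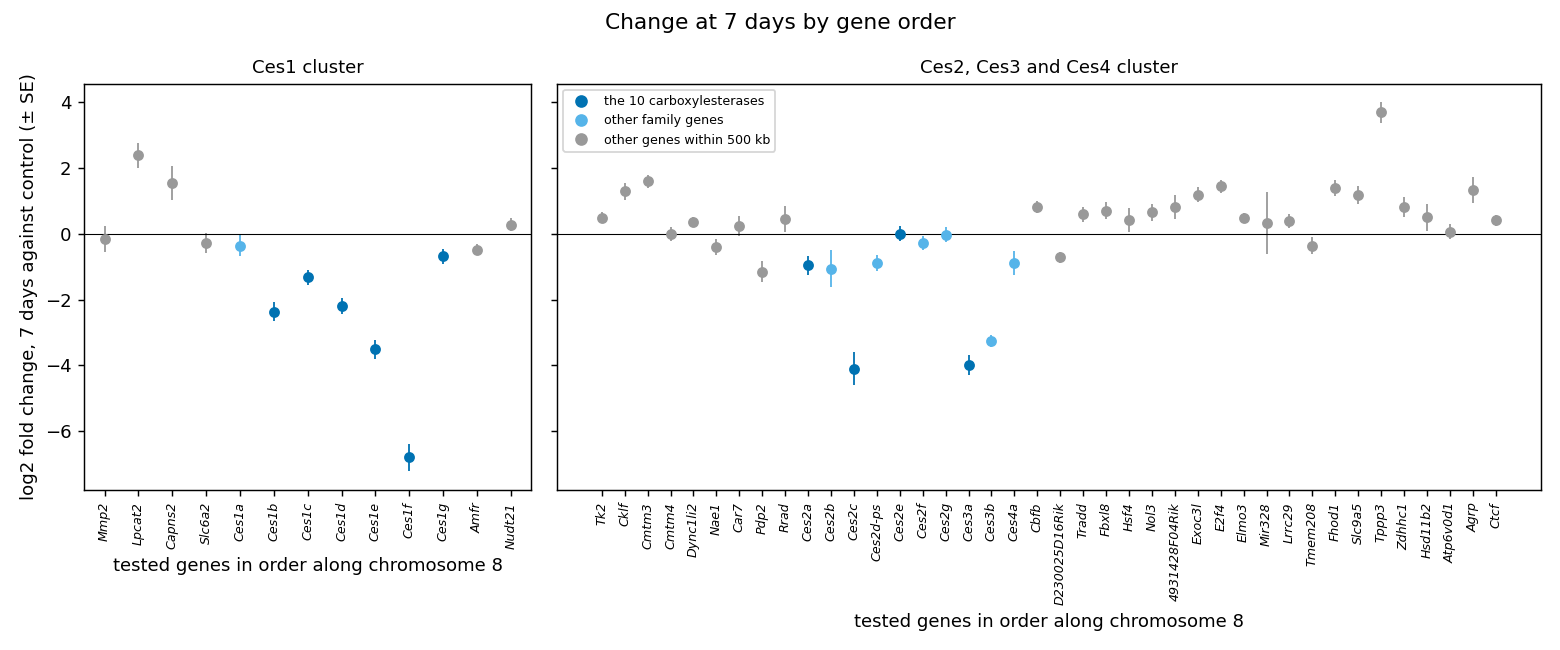
Log2 fold change at 7 days against control (± SE) of tested genes in their order along chromosome 8, for the Ces1 cluster (left) and the Ces2, Ces3 and Ces4 cluster (right), each with its neighbours within 500 kb. The low points, from -1.33 for Ces1c to -6.80 for Ces1f, are family genes in dark blue (the 10 genes) and light blue (Ces3b), while flanking genes in grey run from -1.16 to 3.68.

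Of the other carboxylesterases, only Ces3b was called, with a log2 fold change of -3.26 ± 0.18 (SE) at 7 days (limma adjusted p = 2.82e-07) and -3.14 ± 0.18 (SE) against 3-day livers (limma adjusted p = 4.16e-07). Ces2g, at 18.7 to 31.7 eRPKM in controls and 20.4 to 26.4 eRPKM at 7 days, had a log2 fold change of -0.03 with an interval of -0.51 to 0.45. The pseudogene Ces2d-ps, which shares most of its sequence with Ces2c, was at 0.395 to 0.821 eRPKM in controls and 0.0831 to 0.186 eRPKM at 7 days, from at most 7 reads in any liver, and was not called (limma adjusted p = 0.012). Ces1a, Ces2b and Ces4a averaged under 2 eRPKM in every group and were not called, nor was Ces2f at 3.24 ± 0.60 eRPKM (SD) at 7 days. Ces5a was listed at 0 in 7 of the 11 livers.

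Other esterases and lipid hydrolases of the liver moved in both directions at 7 days. Of 30 listed, 28 were tested, and 6 fell, where 5.77% of all tested genes did, 2 rose, where 18% did, and 20 did not pass. Their median log2 fold change was 0.05, against 0.26 over all genes. Lipc, the hepatic lipase that works on lipoproteins, fell by 2.11 on the log2 scale (limma adjusted p = 1.47e-05). Pon1, a lipoprotein-bound esterase of plasma, fell by 2.03 (limma adjusted p = 0.000177), and Cmbl, carboxymethylenebutenolidase, fell by 1.25 (limma adjusted p = 0.000322). Acot2, a mitochondrial acyl-CoA thioesterase, rose by 2.97 (limma adjusted p = 0.00309), and Gusb was the other riser. At 3 days 0 of the 28 were called. Against 3-day livers 7 fell at 7 days, where 5.31% of all tested genes did, and 2 rose, where 14% did.

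Of 12 transcription factors known at carboxylesterase or drug metabolism genes, 3 fell (5.77% of all genes did), 1 rose (18% did) and 8 did not pass at 7 days, and 0 were called at 3 days. Nr1i3, the xenobiotic receptor CAR, fell by 1.84 on the log2 scale (limma adjusted p = 0.000308), Ppara, the fatty acid receptor, fell by 1.35 (limma adjusted p = 7.03e-05), and Nr1h4, the bile acid receptor FXR, fell by 0.67 (limma adjusted p = 0.00161). Nfe2l2, the oxidative stress factor NRF2, rose by 0.91 (limma adjusted p = 0.00293). Hnf4a and Cebpa were named after their values were seen because their motifs were searched. Hnf4a stood at 135 to 181 eRPKM in controls and 116 to 129 eRPKM at 7 days, with a log2 fold change of -0.35 ± 0.14 (SE, limma adjusted p = 0.0662). Cebpa, which encodes a C/EBP factor of hepatocytes, stood at 136 to 217 eRPKM in controls and 81.1 to 123 eRPKM at 7 days, with a log2 fold change of -0.75 ± 0.22 (SE, limma adjusted p = 0.0182), and it fell against 3-day livers, at -0.97 ± 0.22 (SE, limma adjusted p = 0.00537).

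Across the 11 livers the profile of Ces1f (log2(eRPKM + 0.5)) was most like those of Car3 (Pearson r = 0.993), F9 (0.992), Ugt3a1 (0.990), Aspdh (0.988) and C1rl (0.988) among 12551 genes outside the family. Within the family r with Ces1f was 0.994 for Ces1e, 0.990 for Ces3b, 0.984 for Ces3a, 0.980 for Ces1d and 0.205 for Ces2e. These values describe 11 libraries in 3 groups of unequal depth, and no r was computed within a group. The size of the decrease differed widely at the same r: F9, a clotting factor, had a log2 fold change of -1.50 at 7 days, Car3, a carbonic anhydrase, -4.88, and Ces1f -6.80.

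No sex difference passed the test among the 10 genes. In the 8 control and 3-day livers, with group and sex in one limma fit, 0 of the 10 genes were called in either direction, as against 0.184% of 13554 genes higher and 0.266% lower in males. An unadjusted p under 0.05 was reached by 4 of the 10 (Ces1g, Ces2a, Ces2c and Ces3a), and by 8.23% of all genes. The difference of Ces3a, male minus female, was 0.64 ± 0.25 on the log2 scale (SE, limma adjusted p = 0.509), and that of Ces1f was 0.51 ± 0.25 (SE, limma adjusted p = 0.645). The value for Ces1g was -0.44 ± 0.17 (SE, limma adjusted p = 0.475) and that for Ces2a 0.47 ± 0.18 (SE, limma adjusted p = 0.490), beside log2 fold changes of -0.69 and -0.95 for these genes at 7 days. Sex and depth were not balanced in this fit. Its male livers held 1230368 to 3864438 reads on genes and its female livers 2383710 to 5462240, ranges that overlap. The 10 hepatocyte markers were all higher in males, by 0.26 to 0.43 on the log2 scale, against a median of -0.12 over all genes. The part of depth in the differences between the sexes was not tested.

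Markers of other cells moved with the 7-day group, and their part in the lower carboxylesterase levels was not tested. Over all tested genes, 18% rose and 5.77% fell at 7 days. The summed level of 5 macrophage markers was 194 to 393 eRPKM in controls, 251 to 447 eRPKM at 3 days and 651 to 742 eRPKM at 7 days. Of these 5 markers, 3 rose at 7 days. The 6 cholangiocyte markers summed to 37.5 to 49.0, 40.5 to 84.7 and 62.2 to 112 eRPKM, 2 of them rose, and Cldn4 was at 0 in every control. The 6 lymphocyte markers summed to 9.44 to 16.8, 8.15 to 13.7 and 29.1 to 38.8 eRPKM, and 1 rose. The 6 endothelial markers summed to 109 to 193, 128 to 234 and 183 to 218 eRPKM, where 2 rose, and the 6 stellate cell markers to 147 to 206, 126 to 259 and 99.9 to 110.3 eRPKM, where 1 fell. Intestinal markers, whose source organ also makes carboxylesterases, summed to 90.2 to 149, 73.5 to 191 and 55.3 to 75.2 eRPKM, and 1 of the 3 tested rose at 7 days, by 4.01 on the log2 scale. Adipocyte markers summed to 7.90 to 43.7, 8.06 to 19.2 and 37.4 to 46.8 eRPKM, with 0 of 3 tested called at 7 days, and exocrine pancreas markers to at most 3.47 eRPKM in any liver. Hepatocyte markers, beside these, had log2 fold changes of -1.40 to -0.68 at 7 days, and 1 of 10 fell. The differences of Ces1f, Ces2c, Ces3a, Ces1e, Ces1b and Ces1d were larger than that of any marker on the hepatocyte list. The level of such high markers varied with depth. Alb stood at 918 eRPKM in control 4, at 268 eRPKM in control 2, the deepest control, and at 234 to 258 eRPKM at 7 days. The markers therefore give no measure of hepatocyte loss here, which was not tested.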

How the data were processed

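Total RNA of 11 homogenized livers was prepared with TruSeq RNA v2 kits, sequenced paired-end and, by the authors, aligned to mm9 with TopHat2 2.0.8. The submitters' processing notes also name featureCounts 1.4.5-p1, SAMtools and DESeq2. The gene annotation and the handling of duplicate reads are not given in the sources used here. The deposited values are eRPKM, a form of RPKM, 1 column per liver. The deposited table also holds 3 columns of the authors' own DESeq2 comparison (mean signal, log2 ratio, adjusted p-value), which were not used. No sample column was left unmapped.

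Of 20893 rows, 4 with a repeated symbol were left out. Values were whole multiples of a step per gene, from which reads were recovered: 177487 of 177487 values above 0 (100%) came within 0.1 of a whole read, and 2 genes were not recovered. These reads served for depth, read limits and 1 alternative (limma-voom), and intervals and limits from them cover counting error only. Depth was 1230368 to 5909004 reads on genes.

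A gene was tested if 3 or more livers reached 0.5 eRPKM. The test was limma 3.58.1 in R 4.3.3 (lmFit, then eBayes with a trend) on log2(eRPKM + 0.5). One fit held all 3 groups, and p-values were adjusted by Benjamini-Hochberg over the 14240 genes. Fold changes are on this scale, which understates those of low genes. Calls used the study's thresholds, an adjusted p below 0.01 together with a log2 fold change beyond 0.5 either way. Nothing in the labels says more of the mice than 1 library each, so p-values measure the spread between these livers. The labels give no sex. It was read from Xist and Y-linked genes, and males were tested against females in the 8 control and 3-day livers with the group as a term. The fit was tested on simulated reads.

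The members, lists and alternatives were chosen with earlier results of these data known. Named genes were every member and other carboxylesterase, at most the 3 largest called falls and rises at 7 days of each other list with a mean of at least 1 eRPKM, the 5 genes most correlated with Ces1f, and neighbours within 500 kb. Alternatives were other pseudocounts, filters, scalings and covariates, female livers only, limma-voom, and leaving out each liver. Log2 depth as a covariate and the 2 deepest controls only were added after the values were seen. Positions are from GENCODE M1 on mm9, and promoters from RefSeq (GRCm38.p6), placed on mm9 by exact match. Python 3.11.15, numpy 2.4.6, pandas 2.3.3 and matplotlib 3.10.9 were used.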

Additional observations from a re-analysis of the deposited data

Results flagged for a closer look

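In groups of 4 livers, 3 of 34 sets of values held 1 liver whose gap to the next liver, divided by the range of the group, was above Dixon's 95% critical value, and chance gives about 1 in 20. For Ces1b this was 3-day liver 2 at 25.7 eRPKM, where the other 3 stood at 52.3 to 55.0 eRPKM (ratio 0.906), and the log2 fold change of Ces1b at 3 days was -0.11 with this liver and 0.15 without it. For Ces2b it was control 4 at 2.46 eRPKM, from 6 reads in the shallowest library (ratio 0.919). For the pseudogene Ces2d-ps it was 3-day liver 1 at 0.371 eRPKM, from 2 reads where the other 3 had 1 read each (ratio 0.992).

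For 8 carboxylesterases the difference from control at 7 days was not the same as that at 3 days, by limma's test of 7-day against 3-day livers, in which the controls cancel. The log2 step was -6.42 for Ces1f, -3.62 for Ces3a, -3.42 for Ces2c, -3.16 for Ces1e, -3.14 for Ces3b, -2.26 for Ces1b, -1.89 for Ces1d and -1.02 for Ces1c. In each of the 8 genes every 7-day liver lay below every 3-day liver. The 7-day livers of this test are those by which the family was picked.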

How the results depend on the processing

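Across the alternatives 7 to 8 of the 10 carboxylesterases were called lower at 7 days against control, 6 to 8 fell against 3-day livers, and 0 were called at 3 days or between the sexes. At 7 days against control, 228 of 240 single values kept their direction and their side of the thresholds. That comparison chose the family, so these counts are a description and carry no weight as evidence. Ces1g passed in 3 settings (female livers only, Xist as a covariate and without control 1). Ces2e changed sign in 9 (quantile normalization 0.34, log2 depth 0.31, the 2 deepest controls 0.27, without 1 control 0.056 to 0.12, replicate block 0.10, voom 0.023, without 1 of the 7-day livers 5.02e-05 to 0.0095). Against 3-day livers 221 of 240 did so. Ces1c was lost in 9 settings (each of the 7-day livers, 3-day livers 1 and 4, median-ratio factors, Xist as a covariate, female livers only and the replicate block, adjusted p 0.0101 to 0.0279), Ces1g passed in 8, and Ces2e changed sign under quantile normalization (0.22) and log2 depth (0.048). At 3 days 229 of 240 did so, and the exceptions were Ces1b (0.15 with female livers only and 0.15 without 3-day liver 2), Ces2a (0.055 with female livers only, 0.093 with the label suffix MF as a covariate, 0.039 with log2 depth, 0.11 with the 2 deepest controls, 0.11 without control 4 and 0.017 without 3-day liver 3), and with the 2 deepest controls Ces1c (0.10), Ces1d (0.0023) and Ces3a (0.028). Between the sexes 141 of 150 did so. Signs changed for Ces1c (-0.11 under quantile normalization, -0.029 and -0.072 without control 2 or 4), Ces1d (-0.12 under quantile normalization and -0.065 without control 4) and Ces2e (0.065 with median-ratio factors, and 0.13, 0.044 and 0.036 without control 1, 3-day liver 2 or 3-day liver 4). Over the fits without 1 liver, the lowest and highest values were -0.21 and 0.15 for Ces1b and -0.21 and 0.11 for Ces2a at 3 days, -0.18 and 0.12 for Ces2e at 7 days, and, between the sexes, -0.072 and 0.30 for Ces1c, -0.065 and 0.28 for Ces1d and -0.22 and 0.13 for Ces2e. The cause of these changes was not tested.

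Counts over all genes moved more. At 7 days against control the 821 falls became 1253 with median-ratio factors and 1819 with quantile normalization, and the 2560 rises became 1552 with female livers only, 1099 with log2 depth and 1405 with the 2 deepest controls. Leaving out 1 liver gave 465 to 913 falls and 1511 to 2767 rises. Against 3-day livers the 756 falls became 1181, 1429 and, with female livers only, 421, and the 1996 rises became 1325 with Xist as a covariate, 1046 with female livers only and 1092 with log2 depth. Leaving out 1 liver gave 360 to 1065 falls and 982 to 2617 rises. At 3 days against control the 0 falls became 1 with female livers only and 0 to 2 without 1 liver, and the 6 rises became 3 without a filter, 12 with median-ratio factors, 16 with Xist, 10 with the suffix MF, 1 with voom, 1 with log2 depth, 0 with the 2 deepest controls and 0 to 53 without 1 liver. Between the sexes leaving out 1 liver gave 21 to 39 genes lower and 10 to 24 higher in males.

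The main fit did not treat livers of the same replicate number as pairs. Deviations of same-numbered livers correlated at -0.222 to 0.269. Differently numbered livers were not compared, so these values cannot decide whether the numbers pair the livers. With the number as a block, 3 genes rose at 3 days, 7 of the 10 carboxylesterases were called lower at 7 days and 6 fell against 3-day livers, Ces1c being lost (adjusted p = 0.0119). Depth limits Ces2c and Ces1f at 7 days most, where they rest on 0 to 7 and 5 to 35 reads.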
